A study of Homo sapiens with 6 samples.

Results

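The promoters of the genes of respiratory complex I were examined for acetylation of lysine 27 of histone H3 (H3K27Ac) and trimethylation of lysine 4 of histone H3 (H3K4me3). Genes were taken by symbol, NDUF followed by A, B, C, S or V, which covers the named subunits and the NDUFAF assembly factors. The 45 autosomal protein-coding genes described here stand among 19228 such genes on GRCh37 and 18812 on GRCh38. Of these 45, 6 were core subunits, 28 accessory subunits, 8 assembly factors and 3 were taken by their symbol alone. NDUFA1 and NDUFB11 lie on the X chromosome and were left out of the 45.

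OCI-AML3 is an established human acute myeloid leukemia (AML) line with a mutant NPM1 gene (mtNPM1), and all samples were labelled as this line. Cells received either sgNeg, a control guide RNA, or sgNpm1A, a guide RNA directed to mtNPM1, and both groups were cultured for 3 days per the labels, whereas the methods of the study state a longer time. Chromatin was profiled by ChIPmentation, in which Tn5 transposase tags the precipitated chromatin, with 1 library per combination of mark and guide RNA, and their 4 peak lists were used. The 2 input samples, also 1 for each guide RNA, were not analysed here. There were no replicates, so each comparison describes a pair of libraries, no test of a difference between guide RNAs was possible, and an effect of the guide RNA and a difference between libraries cannot be told apart.

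The sgNeg and sgNpm1A lists held 327715 and 317059 peaks for H3K27Ac, and 353628 and 106641 for H3K4me3. The lists give no read totals, so the depth of the libraries is unknown. The narrowest sgNeg peak had 110 bp for either mark, and the narrowest sgNpm1A peak 140 bp for H3K27Ac and 245 bp for H3K4me3. The deposited lists hold no reads, so the edit at NPM1 could not be checked. The names of both H3K27Ac lists carry a tag that is not in the sample labels and could stand for another line, which would change what the H3K27Ac values describe. Of 6 myeloid marker genes, 6 had an H3K27Ac and 5 an H3K4me3 promoter peak in sgNeg, with LYZ as the exception. The sgNeg H3K27Ac percentiles of these 6 genes were 92.2 to 99.97, whereas 6 lymphoid and erythroid markers, 5 of them with a promoter peak, reached 70.2 at most. In sgNpm1A, 4 of the 6 myeloid and 5 of the 6 other markers had an H3K27Ac promoter peak, and the highest percentile was 81.7 and 98.1. Such markers do not tell myeloid lines apart.

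Complex I is the first enzyme of the mitochondrial respiratory chain. It takes electrons from NADH, passes them through a flavin and a row of iron-sulfur clusters in its matrix arm to ubiquinone, and pumps protons through its membrane arm. The core subunits of the membrane arm are encoded by mitochondrial DNA, whereas the core subunits of the matrix arm, all accessory subunits and the assembly factors are nuclear genes whose promoters carry histone marks. H3K27Ac is found at active enhancers and promoters, and H3K4me3 at active promoters.

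Reference promoter sequences were available for 40 of the 45 genes (RefSeq, GRCh38.p14), from 250 bases before to 50 bases after the start. Their median GC content was 60.5% and their median ratio of observed to expected CpG was 0.84, against 63% and 0.767 over 15100 promoters. A promoter with a GC content of at least 50% and a CpG ratio of at least 0.6 was called CpG-rich, which held for 33 of the 40 (82.5%) and for 64.0% of all promoters. A match to GCGCANGCG, the core of the site of NRF1, a transcription factor of nuclear genes for mitochondrial proteins, was found in 10 of the 40 (25%) and in 11.1% of all promoters. The YY1 motif AAGATGGCG was found in 5 (12.5%) against 2.79%, in all 5 just after the start, at NDUFA6, NDUFA7, NDUFA9, NDUFS4 and NDUFS7. The ETS motif CCGGAAG was found in 5 (12.5%) against 14.4%. The SP motif GGGCGGG was found in 9 (22.5%) against 44.7%. Both strands were searched. At least 1 of these motifs was found in 24 of the 40 (60%) against 56.5% of all promoters, so this share was close, and 16 of the 40 held none.

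The 150 bases before the start are shown for 7 promoters, with matches in capitals. NDUFS6 and NDUFS7 hold an NRF1 match, and NDUFS6 was among the highest promoters for both marks in sgNeg. NDUFS3 holds a pair of ETS matches and NDUFAF4 holds 1, and NDUFA10, among the highest H3K4me3 promoters, holds an SP match. NDUFA5 and NDUFA4L2, the lowest H3K4me3 promoters in sgNeg, hold none in this stretch. For NDUFA5 both the sequence and the value belong to a RefSeq start far upstream of its strongest H3K4me3 peak, which is given further on. NDUFS6 lies at chr5:1801257-1801406 on the plus strand, NDUFS7 at chr19:1383757-1383906 on the plus strand, NDUFS3 at chr11:47578924-47579073 on the plus strand, NDUFAF4 at chr6:96897892-96898041 on the minus strand, NDUFA10 at chr2:240025343-240025492 on the minus strand, NDUFA5 at chr7:123601652-123601801 on the minus strand and NDUFA4L2 at chr12:57240763-57240912 on the minus strand.
NDUFS6: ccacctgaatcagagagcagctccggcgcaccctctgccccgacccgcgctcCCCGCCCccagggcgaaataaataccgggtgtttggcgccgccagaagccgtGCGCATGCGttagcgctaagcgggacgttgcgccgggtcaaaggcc
NDUFS7: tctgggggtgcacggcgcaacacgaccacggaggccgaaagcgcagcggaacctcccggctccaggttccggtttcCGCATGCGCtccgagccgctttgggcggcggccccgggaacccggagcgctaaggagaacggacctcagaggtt
NDUFS3: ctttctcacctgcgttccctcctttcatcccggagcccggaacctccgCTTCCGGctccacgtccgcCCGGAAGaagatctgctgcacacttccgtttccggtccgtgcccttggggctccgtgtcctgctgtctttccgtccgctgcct
NDUFAF4: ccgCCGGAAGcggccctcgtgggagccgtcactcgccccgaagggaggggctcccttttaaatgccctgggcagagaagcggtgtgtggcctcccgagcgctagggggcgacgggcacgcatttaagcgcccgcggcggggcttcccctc
NDUFA10: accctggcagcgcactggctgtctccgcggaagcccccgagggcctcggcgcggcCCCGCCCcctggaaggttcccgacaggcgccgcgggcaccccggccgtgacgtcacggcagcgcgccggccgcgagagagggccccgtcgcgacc
NDUFA5: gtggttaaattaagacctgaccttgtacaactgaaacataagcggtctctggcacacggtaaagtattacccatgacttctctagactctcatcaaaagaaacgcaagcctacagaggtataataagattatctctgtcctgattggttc
NDUFA4L2: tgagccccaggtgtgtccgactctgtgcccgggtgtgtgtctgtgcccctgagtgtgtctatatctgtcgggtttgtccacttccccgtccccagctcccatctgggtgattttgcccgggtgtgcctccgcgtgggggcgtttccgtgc
In NDUFS6 the NRF1 match spans bases 46 to 38 before the start and the SP match bases 98 to 92. In NDUFS7 the NRF1 match spans bases 74 to 66. The ETS matches of NDUFS3 span bases 102 to 96 and 83 to 77.

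A promoter peak was a peak within 1 kb of a start, and where a gene had several the peak of highest fold enrichment was taken. Any transcript start was used on GRCh37 for H3K27Ac, and 1 or 2 RefSeq starts per gene on GRCh38 for H3K4me3. Fold enrichment is scaled within each list, so promoter peaks were compared by percentile, the percent of peaks of the list with the same or a lower fold enrichment, with 0 for a gene without a promoter peak.

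In sgNeg, all 45 complex I genes had an H3K27Ac promoter peak (100%, 95% Wilson interval 92.1 to 100%), where 81.2% of all promoters had a peak. All 45 also had an H3K4me3 promoter peak, against 68.7% of all promoters. In sgNpm1A, an H3K27Ac promoter peak was listed for 14 of the 45 (31.1%, 19.5 to 45.7%), against 59.7% of all promoters. For H3K4me3 it was listed for 0 of the 45, which allows a share of up to 7.87% by the same interval, against 8.54% of all promoters. Wilson intervals treat genes as independent and cover counting error only. In both sgNeg lists the share of all promoters lay below the complex I interval. In sgNpm1A it lay above that interval for H3K27Ac. For H3K4me3 it exceeded the upper limit by so little that 1 gene more with a peak would place it within the interval, so no difference is read from it.

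**Figure D1:**
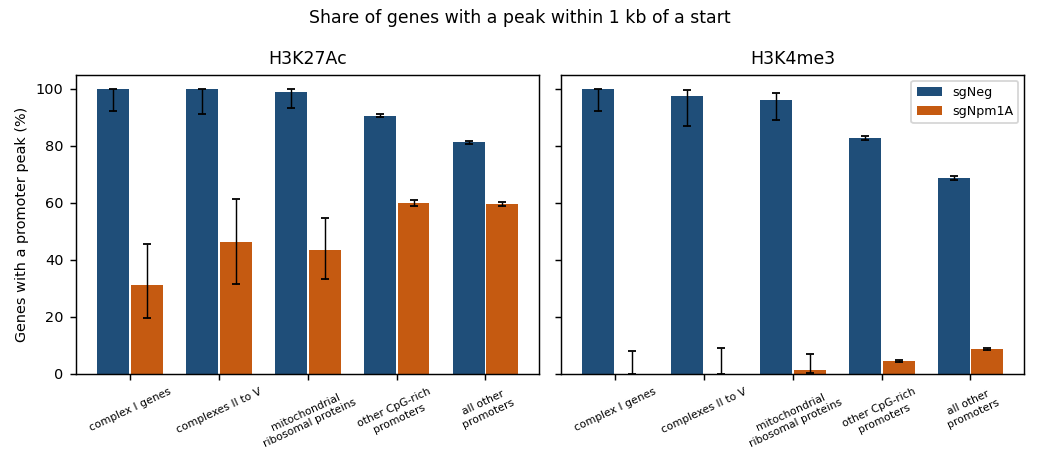
Percent of genes with a peak within 1 kb of a start, for complex I genes and 4 comparison groups, with sgNeg in blue and sgNpm1A in orange and 95% Wilson intervals over genes as bars. Complex I genes are at 100% in both sgNeg lists, and at 31.1% for H3K27Ac and 0% for H3K4me3 in sgNpm1A.

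Other mitochondrial genes of the nuclear genome were counted in the same way. Of 39 genes of complexes II to V, 39 had an H3K27Ac promoter peak in sgNeg and 18 (46.2%, 31.6 to 61.4%) in sgNpm1A. Of 78 genes of mitochondrial ribosomal proteins, 77 had one in sgNeg and 34 (43.6%, 33.1 to 54.6%) in sgNpm1A. The sgNpm1A intervals of these groups overlapped that of complex I, and that of complexes II to V also held the 59.7% of all promoters, so their order is not settled. For H3K4me3 in sgNpm1A, 0 of 39 genes of complexes II to V had a promoter peak, which allows a share of up to 8.97% by the same interval, and 1 of 77 genes of mitochondrial ribosomal proteins had a peak. CpG-rich promoters of other genes had an H3K27Ac promoter peak in 60.0% and an H3K4me3 promoter peak in 4.53% in sgNpm1A. Of 10 assembly genes of complex I without the NDUF prefix, such as ACAD9 and TIMMDC1, 10 had an H3K27Ac promoter peak in sgNeg and 6 in sgNpm1A.

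The median percentile of the complex I genes in sgNeg was 98.1 for H3K27Ac and 98.1 for H3K4me3, against 93.2 and 87.3 for other promoters. Other CpG-rich promoters were closer, with medians of 97.1 and 97.6, and 90.6% and 82.7% of them had a promoter peak. A peak in the highest 1% of its list was present at 9 of the 45 (20%) for H3K27Ac, where 16.1% of all promoters had such a peak. For H3K4me3 it was present at 12 (26.7%), where the share over all promoters was 17.6%. Other CpG-rich promoters were again closer, with 22.4% for H3K27Ac and 25.2% for H3K4me3. At a q-value under 1e-05, 36 (80%) kept an H3K27Ac promoter peak and 43 (95.6%) an H3K4me3 promoter peak, against 36.7% and 53.5% of other promoters. These shares were 50.2% and 72.6% at other CpG-rich promoters and 84.6% and 97.4% in complexes II to V. They were 65.4% and 94.8% in mitochondrial ribosomal proteins. Complex I promoters were thus nearly all of high rank, but fewer reached the highest 1% than in complexes II to V, where 16 of 39 (41.0%) did for H3K27Ac and 22 of 39 (56.4%) for H3K4me3. These shares rest on few genes and no test of their difference was made.

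**Figure D2:**
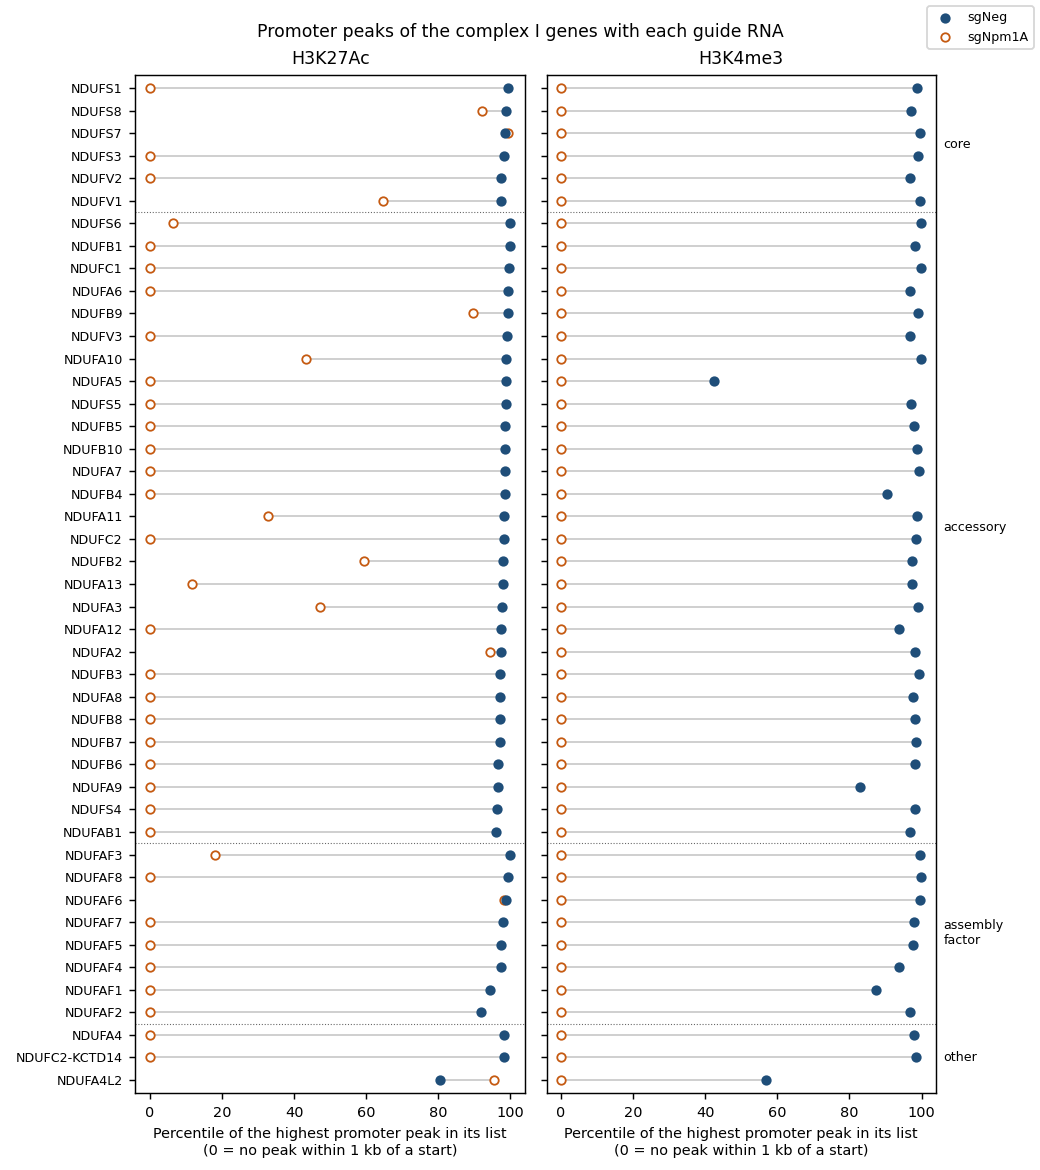
Percentile of the highest promoter peak of each of the 45 genes in the sgNeg list (filled blue) and the sgNpm1A list (open orange), by role of the gene, with 0 for no peak within 1 kb of a start. In sgNeg the H3K27Ac points lie between 80.4 and 99.9, whereas in sgNpm1A 31 genes lie at 0 for H3K27Ac and 45 for H3K4me3.

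The core subunits of the matrix arm carry the flavin, the iron-sulfur clusters and the ubiquinone site, and 6 are described here. For H3K27Ac in sgNeg their percentiles ran from 97.3 at NDUFV1 and NDUFV2 to 99.3 at NDUFS1. NDUFV1 holds the NADH site and the flavin, NDUFV2 carries an iron-sulfur cluster, and NDUFS1 is the largest subunit of the matrix arm. The NDUFS1 peak was 2379 bp wide and enriched 6.24-fold. NDUFS8, an iron-sulfur subunit, had the widest peak of the 45 genes, 11000 bp, and a percentile of 98.7. NDUFS3, which ties the matrix arm together, was at 98.2 and NDUFS7, the subunit with the last iron-sulfur cluster before ubiquinone, at 98.5. All 6 were thus within the highest 3% of the list. The NDUFS1 and NDUFV2 peaks covered the beginning of the gene record. Those of NDUFS3, NDUFS7, NDUFS8 and NDUFV1 began 12580, 5404, 4412 and 758 bp into it. At the beginning of NDUFS3, NDUFS8 and NDUFV1 another peak was listed. The NDUFS1, NDUFS3 and NDUFS8 peaks were also promoter peaks of EEF1B2, KBTBD4 and TCIRG1.

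In sgNpm1A, 3 of the 6 core subunits had an H3K27Ac promoter peak, whereas NDUFS1, NDUFS3 and NDUFV2 had none. NDUFS7 was at percentile 99.4, above its sgNeg value of 98.5. The NDUFS7 peak spanned 2469 bp at chromosome 19, 1387134 to 1389602 (GRCh37), and was enriched 4.75-fold, at a q-value of 3.9e-07. In sgNeg it was narrower, 1388930 to 1389583, and enriched 5.18-fold. Both lay inside the gene, at a transcript start 3608 bp or more from the beginning of the gene record. NDUFS8 was at 92.1 with a peak of 888 bp, and NDUFV1 at 64.7 with a peak of 255 bp. The core subunits with a peak in sgNpm1A were thus of unequal rank, and none of these 3 peaks covered the beginning of its gene. The highest sgNeg promoter peaks of the same 3 genes did not cover it either.

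For H3K4me3 in sgNeg the core subunits were at 99.6 (NDUFS7 and NDUFV1), 99.1 (NDUFS3), 98.6 (NDUFS1), 97.0 (NDUFS8) and 96.7 (NDUFV2). In sgNpm1A, 0 of the 6 had an H3K4me3 promoter peak. The core subunits were thus high for both marks in sgNeg.

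The 28 accessory subunits surround the core. Their median percentile in sgNeg was 98.2 for H3K27Ac and 98.1 for H3K4me3, and 8 of 28 (28.6%) had an H3K27Ac and 0 an H3K4me3 promoter peak in sgNpm1A. The highest for H3K27Ac in sgNeg were NDUFS6 and NDUFB1, both at 99.8, with fold enrichments of 7.88 and 7.86. NDUFS6 is a zinc-binding subunit of the matrix arm and NDUFB1 a small subunit of the membrane arm. They were followed by NDUFC1 at 99.6 and NDUFA6 at 99.5. The NDUFB10 peak, at 7395 bp, was the widest after that of NDUFS8. For H3K4me3, NDUFS6 and NDUFA10 were both at 99.8 with a fold enrichment of 12.3, and NDUFC1 was at 99.8 with 12.1. NDUFS6 and NDUFC1 were thus near the top for both marks, whereas NDUFB1 was at 98.1 for H3K4me3.

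In sgNpm1A, the highest accessory subunits for H3K27Ac were NDUFA2 at 94.3, with a peak of 193 bp, and NDUFB9 at 89.6, with a peak of 1274 bp. The NDUFA2 peak lay 1216 bp and the NDUFB9 peak 16616 bp into the gene record. NDUFS6, at 99.8 in sgNeg, was at 6.43 in sgNpm1A, the lowest of the 14, with a peak of 721 bp that covered the start. NDUFB1, NDUFC1 and NDUFA6 had no H3K27Ac promoter peak in sgNpm1A. Of the 6 accessory subunits at 99 or above in sgNeg, NDUFS6 and NDUFB9 had a peak in sgNpm1A and 4 had none.

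The assembly factors join the modules of the complex and do not stay in the finished enzyme. For H3K27Ac in sgNeg, NDUFAF3, which acts with NDUFAF4 on the ubiquinone module, was the highest of the 45 genes at 99.9, with a fold enrichment of 8.38 over 6036 bp. NDUFAF8, the partner of NDUFAF5, was at 99.3 and NDUFAF6 at 98.8. NDUFAF7, a mitochondrial methyltransferase, was at 97.99, and NDUFAF4 and NDUFAF5 were both at 97.4. NDUFAF1 (94.2) and NDUFAF2 (91.9), both needed at intermediate or late steps of assembly, were the lowest of the 45 apart from NDUFA4L2. Assembly factors thus held both ends of the ranking when the 3 genes taken by symbol alone are set aside. The NDUFAF3 peak was also the promoter peak of DALRD3. The NDUFAF1 peak lay 6353 bp into the gene record, and the peak nearest to the beginning of that record was 1910 bp away.

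For H3K4me3 in sgNeg, NDUFAF8 was the highest of the 45 genes at 99.9, with a fold enrichment of 13.9. NDUFAF3 and NDUFAF6 were at 99.7, and their peaks were among the 3 widest, with 1628 and 2882 bp. NDUFAF7, at 97.8, had the other, of 2373 bp. NDUFAF5 was at 97.6, NDUFAF2 at 96.7, NDUFAF4 at 93.8 and NDUFAF1 at 87.3. In sgNpm1A, 2 of the 8 had an H3K27Ac promoter peak and 0 an H3K4me3 promoter peak. NDUFAF3 was at 18.1 with a peak of 289 bp. NDUFAF6 was at 98.3 with a peak of 190 bp, but this peak lay 52800 bp into the gene record and was also within 1 kb of a start of TP53INP1. The beginning of NDUFAF6 itself held no sgNpm1A peak.

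The other 3 genes share the symbol only. NDUFA4 is now assigned to complex IV, NDUFA4L2 is its hypoxia-inducible relative, and NDUFC2-KCTD14 is a readthrough gene that starts with NDUFC2, so that both have the same promoter peak in each sgNeg list. NDUFA4 was at 98.3 for H3K27Ac and 97.95 for H3K4me3 in sgNeg and had no promoter peak in sgNpm1A. NDUFA4L2 was the lowest of the 45 for H3K27Ac in sgNeg, at 80.4 with a peak of 463 bp, and was at 95.5 in sgNpm1A with a peak of 470 bp at about the same place. For H3K4me3 it was at 56.9 in sgNeg, with a peak of 118 bp, and had none in sgNpm1A. NDUFA4L2 and NDUFS7 were the 2 genes of the 45 with a higher H3K27Ac percentile in sgNpm1A than in sgNeg, and 43 were lower. Of all 19228 promoters, 3693 were higher and 12894 lower. Of complexes II to V 0 of 39 genes were higher, and of mitochondrial ribosomal proteins 0 of 78.

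A promoter peak in sgNeg and none in sgNpm1A was found at 31 of the 45 genes (68.9%) for H3K27Ac, where the share over all promoters was 26.6%. For H3K4me3 it was found at 45 (100%), where the share was 62.0%. All 45 had a sgNeg peak and could thus lose it, which was true of fewer of the other promoters. Among promoters with a sgNeg H3K27Ac peak, 31.1% of the complex I genes and 67.3% of the others had any sgNpm1A promoter peak. The median change of the percentile from sgNeg to sgNpm1A was -97.1 for complex I genes and -18.3 for other promoters for H3K27Ac. It was -96.0 for complexes II to V and -93.2 for mitochondrial ribosomal proteins. Genes without a sgNpm1A peak enter at 0, so for most complex I genes the change is the sgNeg percentile with its sign turned. Of the 14 genes with H3K27Ac promoter peaks in both lists, 7 (50%) had peaks that overlapped, where the share over all promoters was 38.1%.

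The rank in sgNeg was also held alike between complex I and other genes. Among promoters at percentiles of 95 to 98 in the sgNeg H3K27Ac list, 3 of 16 complex I genes (18.8%) and 64.4% of the others had a sgNpm1A peak. At 98 to 99 these were 7 of 17 (41.2%) and 59.8%, and at 99 or above 3 of 9 (33.3%) and 58.6%. The complex I share was below that of the others in each of these ranges, though each holds few complex I genes. For H3K4me3 at 95 to 98 it was 0 of 14 against 5.01%, and above that 0 of 24 against at most 2.61%, so that no difference could be seen at equal sgNeg rank.

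The peaks of the complex I genes were in a narrow zone around the start in sgNeg. At 100 bp into the gene, an H3K27Ac peak was present in 42 of 45 complex I genes (93.3%), and in 53.6% of other genes. For H3K4me3 the share was highest at 300 and 400 bp into the gene, at the latter 42 of 45 (93.3%) against 43.2%. At the start itself it was only 7 of 45 (15.6%) against 11.9%. The summit of the H3K4me3 promoter peak lay downstream of the start at 39 of 45 (86.7%) and 402 bp from it in the median, against 79.1% and 342 bp for other genes. In 23 of the 45 the peak began within 100 bp downstream of the start without covering it, a count not made for other genes. Upstream, an H3K4me3 peak was present 400 bp before the start in 17 of 45 (37.8%) against 16.2%, and 100 bp before it in 5 of 45 (11.1%) against 7.80%. Of the highest H3K4me3 promoter peaks, 6 (13.3%) covered the start, 33 lay inside the gene and 6 upstream. Of those of other genes, 13.8% covered the start, so this share was alike. Of the highest H3K27Ac promoter peaks, 36 of 45 (80%) covered the start, against 54.5% of those of other genes, and 9 lay inside the gene. The acetylated zone thus spanned the start, whereas H3K4me3 peaks lay mostly inside the gene and less often upstream, with few on the start itself in complex I and other genes.

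**Figure D3:**
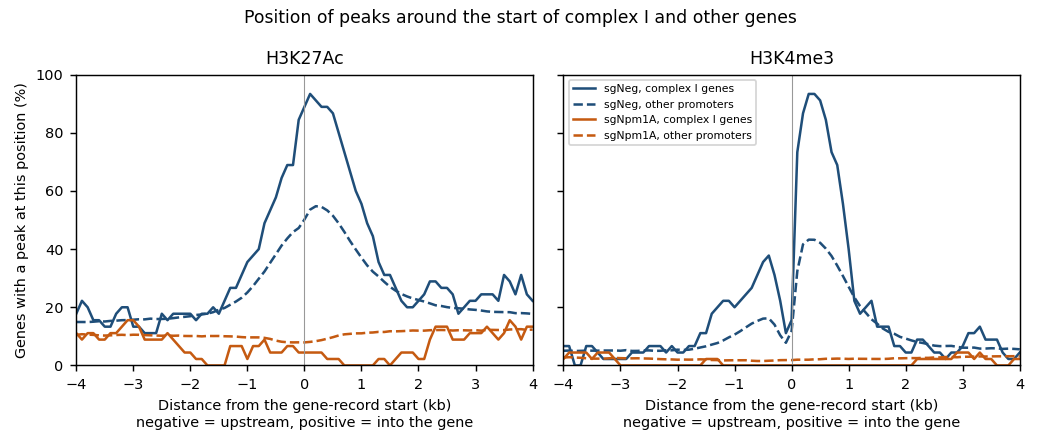
Percent of genes with a peak at each distance from the beginning of the gene record, in steps of 100 bp from 4 kb upstream to 4 kb into the gene, for complex I genes (solid) and other genes (dashed) in sgNeg (blue) and sgNpm1A (orange). The sgNeg lines of complex I rise to 93.3% at 100 bp for H3K27Ac and at 400 bp for H3K4me3, whereas the sgNpm1A lines show no rise at the start.

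In sgNpm1A there was no such zone. Some H3K27Ac peak, not always the highest, was present at the beginning of 2 of 45 complex I genes (4.44%), against 7.92% of other genes. At 1000 bp into the gene it was present in 0 of 45 against 11.04%, and 3100 bp upstream in 7 of 45 (15.6%) against 10.4%, a share that was also reached elsewhere in the stretch and passed nowhere in it. Of the 14 highest H3K27Ac promoter peaks in sgNpm1A, 1 (NDUFS6, 7.14%) covered the beginning of the gene, 10 lay inside the gene and 3 upstream. Of those of other genes, 8.59% covered it, so this was no mark of the complex I genes. In windows moved 20 kb to either side, 54.4% of those of complex I genes and 57.5% of those of other genes held a peak. The share at the complex I promoters themselves, 31.1%, was lower. For H3K4me3 in sgNpm1A, 17.8% of the moved windows of complex I genes held a peak, against 0% at their promoters. These shares were 12.1% and 8.56% for other genes, and 16.7% and 0% for complexes II to V. A lower share at promoters than in moved windows was thus not particular to complex I. The nearest sgNpm1A H3K4me3 peak was 18411 bp away in the median, against 13546 bp for other promoters and 15276 bp for complexes II to V. It was over 10000 bp away for 30 of the 45, a count not made for other promoters.

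Peaks elsewhere in the genes were still listed in sgNpm1A. Anywhere in the gene record or 1 kb beyond it, 34 of the 45 genes (75.6%) had an H3K27Ac peak, where the share over all genes was 86.8%. For H3K4me3 it was 13 of the 45 (28.9%), where the share over all genes was 54.4%. The gene records of complex I are shorter, with a median of 14.6 kb on GRCh37 against 27.6 kb for other genes. They held 211 H3K27Ac peaks in sgNpm1A and 311 in sgNeg, and 57 and 300 H3K4me3 peaks. NDUFAF6, with a record of 222.7 kb, held 112 of these sgNeg and 30 of the sgNpm1A H3K4me3 peaks, and 82 and 72 of the H3K27Ac peaks. The records of other genes held 182499 H3K27Ac peaks in sgNpm1A and 202368 in sgNeg, and 57825 and 200050 H3K4me3 peaks. Fewer H3K4me3 peaks in sgNpm1A were thus not particular to complex I. NDUFA5 is the gene whose H3K4me3 value depends most on the start used. On GRCh38 its record begins far upstream, with a promoter peak of 135 bp at percentile 42.4, whereas a peak of 815 bp at 98.1 was centred 44304 bp into the record. Its H3K27Ac peak, with GRCh37 starts, was at 98.8.

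The number of starts per gene also bears on the H3K27Ac shares, because each start adds a window. Complex I genes had a median of 7 annotated starts on GRCh37 and other genes 5. Among genes with 1 or 2 starts, 0 of 4 complex I genes and 39.9% of other genes had a sgNpm1A H3K27Ac promoter peak. With 3 to 5 starts it was 3 of 11 (27.3%) and 56.0%, with 6 to 10 starts 3 of 16 (18.8%) and 65.5%, and with 11 or more 8 of 14 (57.1%) and 79.6%. The share rose with the number of starts in other genes, and the complex I share was lower in each class. With the beginning of the gene record alone, 44 of the 45 had an H3K27Ac promoter peak in sgNeg and 7 (15.6%) in sgNpm1A, against 71.6% and 33.9% of other genes.

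In the main setting the median peak width of complex I genes was above that of other promoters in sgNeg and, for H3K27Ac, below it in sgNpm1A. The median width of the H3K27Ac promoter peak of complex I genes in sgNeg was 1907 bp (quartiles 1290 to 2684 bp, range 280 to 11000 bp), against 1525 bp for other promoters with a peak. The narrowest was at NDUFA9, with 280 bp. For H3K4me3 it was 858 bp (range 118 to 2882 bp) against 693 bp. The sgNeg medians for H3K27Ac and H3K4me3 were 1957 and 916 bp in complexes II to V. They were 1930 and 837.5 bp in mitochondrial ribosomal proteins, and 1699.5 and 799 bp at other CpG-rich promoters. Such widths were thus not particular to complex I. In sgNpm1A the 14 H3K27Ac peaks had a median of 442 bp (range 190 to 2469 bp) against 566.5 bp, and 8 of the 14 were under 500 bp. This order turned with the beginning of the gene record alone, where 7 genes had a median of 674 bp against 566 bp. It also turned at a q-value under 1e-05, where 1 gene was left. In the other alternative settings it was kept, so no firm difference in width is read from sgNpm1A. The H3K27Ac and H3K4me3 lists came from broad and narrow peaks, so widths are compared within a mark only. In sgNeg the difference of the H3K27Ac medians was smaller than the distance between the quartiles of the complex I genes.

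**Figure D4:**
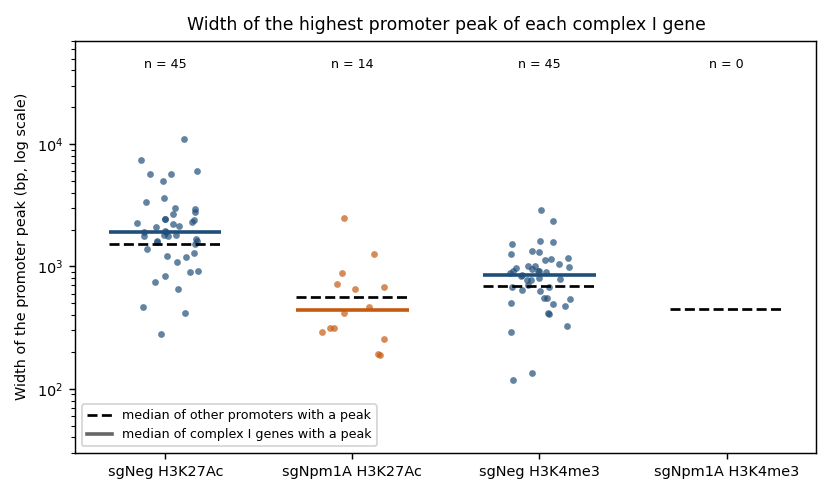
Width in bp, on a log scale, of the highest promoter peak of each complex I gene that had a peak, for the 4 lists, with the median of these genes as a coloured line and the median of other promoters with a peak as a dashed line. Medians of complex I genes are 1907 and 442 bp for H3K27Ac and 858 bp for sgNeg H3K4me3, and no point stands for sgNpm1A H3K4me3.

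Both marks ranked the complex I genes only partly alike in sgNeg. Over the 45 genes, which share libraries and in part sequence composition, Spearman's rho between the H3K27Ac and the H3K4me3 percentile was 0.430, and between the widths 0.535. NDUFAF3, NDUFAF8, NDUFB9, NDUFC1 and NDUFS6 were in the highest 1% of both lists. All 5 start within 1 kb of an oppositely directed coding gene, the mitochondrial ribosomal protein gene MRPL36 in the case of NDUFS6, DALRD3 for NDUFAF3, TEPSIN for NDUFAF8, TATDN1 for NDUFB9 and NAA15 for NDUFC1. Such a divergent neighbor was present at 24 of the 45 (53.3%), against 16.2% of other genes. Where a gene and its neighbor had the same highest promoter peak in sgNeg, their values cannot be told apart. This held for all 5 of these genes for H3K27Ac, and for all of them but NDUFS6 for H3K4me3. For 26 of the 45 genes the H3K27Ac peak in sgNeg was also the promoter peak of another coding gene, a count not made for other genes.

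Complex I genes with and without a divergent neighbor were close in the share with a peak and differed in its width. In sgNeg both groups had a promoter peak in 24 of 24 and 21 of 21 genes for each mark, whereas other genes had an H3K27Ac promoter peak in 95.8% with such a neighbor and 78.3% without. The median width for H3K27Ac was 2176 bp with a neighbor and 1519 bp without, and for other genes 2143 and 1364 bp. In sgNpm1A an H3K27Ac promoter peak was present in 8 of 24 (33.3%) with a neighbor and 6 of 21 (28.6%) without, against 60.7% and 59.5% of other genes.

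The comparison in sgNpm1A was also made with the stronger peaks alone. At a q-value under 1e-05, 1 of the 45 (2.22%), NDUFS7, kept an H3K27Ac promoter peak, against 0.938% of other promoters. With the 20000 peaks of lowest p-value in each list, 4 of the 45 (8.89%) had a promoter peak against 7.53%. The lower H3K27Ac share of complex I genes was thus seen when all sgNpm1A peaks were counted. Among the strongest, so few promoters of either group had a peak that a lower share of 45 genes could hardly be seen. No conclusion is drawn from these 2 limits.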

How the data were processed

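ChIPmentation libraries of H3K27Ac and H3K4me3 from OCI-AML3 cells with sgNeg or sgNpm1A were used, 1 per group. The submitters' processing notes name bcl2fastq 2.17, Trimmomatic 0.33, Bowtie 1.1.2, MACS2 2.1.0, deepTools and hg38. The H3K27Ac coordinates are those of GRCh37, since the last peaks on chromosome 1 end at 249218478 and 249212461, beyond its length on GRCh38, and were used as such. The lists follow the broad (H3K27Ac) and narrow (H3K4me3) layouts of MACS2. The fold enrichment, as deposited, is the ratio of observed to expected pileup, averaged over the region for H3K27Ac and at the summit for H3K4me3. The deposited −log10 q-value and, in 1 alternative, the −log10 p-value served as filters only. The deposited score was not used. Calling thresholds and the use of inputs were not given in the sources used here. No Tn5 shift was stated by the authors, which moves an edge by a few bases only.

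Starts were all transcript starts of GENCODE 44 (lifted to GRCh37, 141517 starts) for H3K27Ac and RefSeq starts for H3K4me3, where 2468 genes had 2 starts and 18812 of 19122 genes had a strand. Symbols matched the 45 genes in both annotations, 2 of them in RefSeq through an older symbol. A gene that the symbol rule also matched is not reported here, and is left out of every count and figure. The highest peak within 1 kb with an overlap of at least 1 bp was taken. Alternatives were a q-value under 1e-05, 500 bp, 2 kb, the beginning of the gene record alone, an overlap of 200 bp and, added after the data were seen, the 20000 peaks of lowest p-value. Python 3.11.15 with pandas 2.3.3, numpy 2.4.6, scipy 1.17.1 and matplotlib 3.10.9 was used, and the peak search was tested on simulated data. Groups came from sample titles.

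The genes, comparison lists, motifs and markers were chosen with earlier results of these data known. Named genes were the core subunits, the assembly factors, in each sgNeg list the 5 highest and 3 widest, those without a sgNeg peak (there were 0), those with a sgNpm1A H3K4me3 peak (0 of the 45), the 5 highest in sgNpm1A H3K27Ac, those higher in sgNpm1A, and NDUFA4, NDUFA4L2 and NDUFC2-KCTD14. NDUFA5, NDUFA9, NDUFB9 and genes named for a motif or a neighbor were chosen after their values were seen.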

Additional observations from a re-analysis of the deposited data

How the results depend on the processing

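Of 66 values recomputed under other settings, 59 were similar to the main value and 7 moved, all of them in sgNpm1A. Similar was a loose term: the median sgNpm1A H3K27Ac width, 442 bp in the main setting, still counted as similar at 674 bp with the beginning of the gene record alone. Values of 0 in sgNpm1A could not fall under stricter settings, so their staying the same says little. The number of complex I genes with a sgNpm1A H3K27Ac promoter peak, 14 in the main setting, was 1 at a q-value under 1e-05, 24 within 2 kb, 7 at the beginning of the gene record and 4 with the 20000 peaks of lowest p-value, a setting added after the data were seen. Their median width was 2469 bp at a q-value under 1e-05, where 1 gene was left, and their median percentile was 6.43 within 2 kb. The number with a sgNpm1A H3K4me3 promoter peak, 0 in the main setting, was 1 within 2 kb, so no width was compared for that list. Within 2 kb the H3K27Ac share of complex I genes was 53.3%, against 70.4% of other promoters. At a q-value under 1e-05 and with the 20000 peaks the H3K27Ac share was not below that of other promoters, but too few promoters had a peak there for a lower share to be seen. With 1 library per group nothing could be left out and no spread be estimated. No paired analysis was possible because each group had 1 sample. Read depth is unknown, so a missing peak in sgNpm1A means that no peak was listed, not that the mark was absent.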

Other observations

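The X-linked subunits, which were not among the 45 genes, gave the same presence of peaks. NDUFA1 and NDUFB11 both had an H3K27Ac promoter peak in sgNeg, at percentiles of 97.9 and 97.4, and an H3K4me3 promoter peak, at 77.0 and 94.9. Neither had a promoter peak of either mark in sgNpm1A.

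Pseudogenes of the NDUF genes served as copies outside the promoters. Of 60 such pseudogenes on GRCh37, an H3K27Ac peak in the same window was listed for 12 (20%, 95% Wilson interval 11.8 to 31.8%) in sgNeg and 13 (21.7%, 13.1 to 33.6%) in sgNpm1A, against 27.3% and 26.7% of other pseudogenes. For H3K4me3, 15 of 58 (25.9%) had a peak in sgNeg and 2 (3.45%) in sgNpm1A, against 20.4% and 7.70% of other pseudogenes. The H3K27Ac share of the pseudogenes was thus close in both lists, whereas that of the genes themselves was 100% and 31.1%. Reads of a pseudogene and its parent gene can be alike in sequence, so that the position of some peaks is uncertain.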
